A study of Mus musculus with 76 samples.

Results

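The potassium channel genes of the mouse were described here in single arcuate neurons whose cytoplasm was collected through a patch pipette and sequenced (Patch-seq). Every gene whose symbol starts with Kcn was taken, without the non-coding transcript Kcnq1ot1, pseudogenes and antisense genes, when it had 5 or more counts in 3 or more cells. Of 94 such protein-coding genes, 48 passed. Of the 46 that did not, 16 had no count and 30 shared 908 counts, against 31574 counts of the 48 members. The last members to pass were Kcnh4, Kcnj14, Kcnk4 and Kcnv1, with 5 or more counts in exactly 3 cells. The 6 genes just below, among them Kcna1, Kcnh6, Kcnj12, Kcnmb2 and Kcnmb3, reached that count in 2 cells. Kcnj11 was below the limit as well, and is described apart because it forms the pore of the ATP-sensitive channel.

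The 76 cells were labelled as coming from the hypothalamus of mice on Chow diet (CD) or High fat diet (HFD). The diets lasted 6 months, and cells were taken from 5 mice on each. The male mice carried PomcCreERT2, tdTomato and Pomc-eGFP. Tamoxifen at 12 weeks of age (150 mg/kg daily for 5 days) activated a Cre driven by the Pomc promoter, so that tdTomato stayed on in cells that used this promoter at that time, and the diets began 2 weeks later. Cells labelled Pomc+ held tdTomato and eGFP, whereas cells labelled Ghost held tdTomato without eGFP, which reports current activity of the Pomc promoter. The 4 groups were Pomc+ CD (n = 23 cells), Ghost CD (n = 15), Pomc+ HFD (n = 19) and Ghost HFD (n = 19). All 4 groups shared the transgenes and the tamoxifen. The labels name no mouse, so that each group was treated as 1 sample of cells. No test, p-value or standard error was therefore made, and every difference below is a description of these cells.

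Potassium channels let potassium leave the cell, which holds the membrane at rest, ends action potentials and sets how fast a neuron fires again. Each pore is built from several loops that carry a short selectivity filter, and auxiliary subunits change gating or transport of the pore to the surface. In Pomc neurons, which lower food intake, the ATP-sensitive channel is known for linking glucose to firing, and G protein-gated and M-type channels for carrying responses to transmitters and hormones.

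The selectivity filter is the stretch that makes a member a potassium channel, and it is shown here for some of the members named below, and for Kcnj11. Each line is a 30-base window of the coding strand (GRCm38, transcripts and positions from GENCODE M21), with the bases of the filter signature in capitals.
Kcna5, chr6:126533739-126533768, minus strand, exon 1 of 1: actatgaccACTGTAGGCTACGGGgacatg
Kcnc1, chr7:46427964-46427993, plus strand, exon 2 of 4: accatgacgACACTGGGCTATGGAgacatg
Kcnma1, chr14:23528407-23528436, minus strand, exon 8 of 30: acaatgtctACAGTGGGTTATGGGgacgtt
Kcnq3, chr15:66023725-66023754, minus strand, exon 6 of 15: acactggccACCATTGGTTATGGAgacaag
Kcnj3, chr2:55437618-55437647, plus strand, exon 2 of 4: accgaggccACCATCGGCTATGGCtaccgc
Kcnj11, chr7:46099490-46099519, minus strand, exon 1 of 1: gtccaggtgACCATTGGTTTCGGCgggcgc
Kcnk9, second site, chr15:72512713-72512742, minus strand, exon 2 of 2: acattgactACTATAGGGTTCGGCgatttt

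The signature was searched in frame, on the coding strand only, as GGNTANGGN or GGNTTNGGN (N is any base) behind a codon that starts with AC and 1 codon of any kind. It was present in 33 of the 41 pore-forming members (80.5%) and in 0 of the 7 auxiliary members of the Kcnab, Kcnip and Kcne subfamilies, against 279 of 21951 protein-coding genes (1.27%). The pore-forming members without these letters were the 5 Kcnh genes, Kcnj14, Kcnn2 and Kcnn3. All 8 Kcnk members held it, 7 of them at 2 sites, as in channels whose single chain carries 2 pore loops. Exact stretches of 50 bases were shared by 7 pairs of Kcn genes, among them Kcna5 with Kcna6, Kcna3 with Kcna10, Kcna2 with Kcnh7, Kcnk3 with Kcnj10, and Kcnj15 with Kcnj16, and Kcnc1 was in such a pair as well. A read that lies wholly inside a shared stretch cannot be assigned to 1 gene, whereas one that reaches beyond it can, and how many reads this touched is not known here. A further 15 members shared exon bases with another annotated gene, among them Kcnma1, Kcnip4 and Kcnd3, and the library did not mark the strand.

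The depth of the cells set what could be seen. Total counts per cell ran from 4057 to 1452605 (median 322652), and the median was 339691, 123528, 393797 and 333785 in Pomc+ CD, Ghost CD, Pomc+ HFD and Ghost HFD. The 7 genes counted in every cell held 43.7% of all counts. At least 1 of 6 neuron markers was counted in 73 cells, and Pomc or Cartpt in 75. The mean summed CPM of Pomc and Cartpt was 15099.6, 8904, 5586 and 5519.8 in the same group order. Neither gene reached 2-fold for Ghost over Pomc+ on either diet. Intervals of summed counts cover the counting of reads only, since the libraries held no molecular identifiers. Intervals and limits of shares take the cells of a group as independent draws and do not cover differences between mice. Overlap of intervals is given as a description, and does not show that groups are alike. Levels are counts per 1000000 counts of a cell (CPM), averaged over the cells of a group, cells at 0 included.

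The members made up 0.0959% of all counts. A member was counted in 4 to 34 of the 76 cells, with a median of 12 cells, against 16 for all 12265 genes that passed the same limit, and 31 members were counted in 10 or more cells. The lowest level was 0 in every group for every member, and the median was above 0 in 5 of the 192 combinations of member and group. Among these were Kcnc1 in Ghost CD (12.6 CPM), Kcnip1 in Pomc+ HFD (17.4), Kcnma1 in Pomc+ CD (1.38) and Kcnq3 in Pomc+ HFD (2.54). The single highest cell held a median of 34.6% of a member's summed CPM (range 10.4% to 72.7%), and the 3 highest cells held 71%. Means therefore followed a few cells, and beside each ratio below stands its range when any 1 cell is left out, wherever that range changes the reading.

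**Figure D1:**
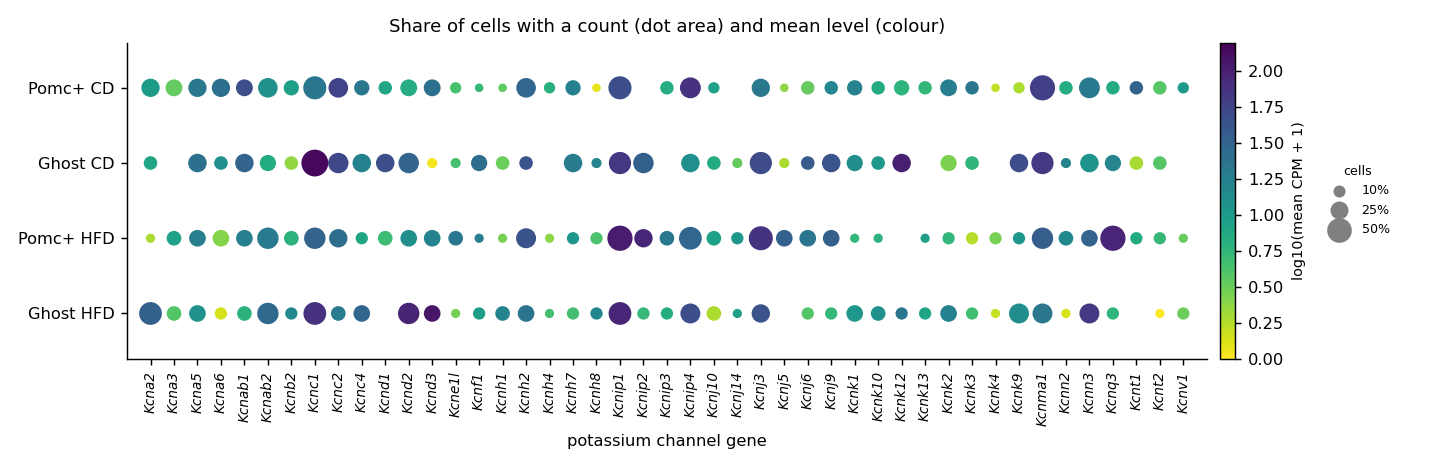
Of the 48 potassium channel genes, 45 (x axis) in the 4 groups (rows), with dot area for the percentage of cells with a count and colour for log10 of the mean CPM plus 1. Most dots are small, and the widest genes, Kcnc1 and Kcnip1, reached 34 of 76 cells over all groups.

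Kcnc1 and Kcnip1 were each counted in 34 cells, Kcnma1 in 31, Kcnj3 and Kcnip4 in 26, Kcnab2 in 24, Kcnn3 in 22 and Kcnd2 in 21. Levels between genes were compared only per kilobase of exon. On that scale the mean over all cells was highest for Kcnk12 (13.6 CPM per kb), followed by Kcnip1 (12.5), Kcnip4 (12.1), Kcnip2 (8.71) and Kcnj3 (8.61), and lowest for Kcnk4 (0.179). The place of Kcnk12 came from 1 cell with 6 counts of 4057, which held 72.7% of its summed CPM.

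By subfamily, on the same scale per kilobase, the 4 Kcnip genes, calcium-binding partners of Kcnd channels, held the highest share of the summed level of the members (21% of summed CPM per kb, counted in 47 of 76 cells). They were followed by Kcnk, background channels (15.8%, 37 cells), of which Kcnk12 with its 1 cell was 13.6 of 26.7 CPM per kb. Kcnj, inward rectifiers (12%, 38 cells), Kcnc, channels that repolarize fast (9.94%, 45 cells), and Kcnd, A-type channels (7.81%, 35 cells), came next. Kcna, delayed rectifiers, held 6.38%, Kcnh 6.29%, Kcnq, M-type channels, 4.06% (42 cells), the Kcna partners Kcnab 3.49%, and Kcnb, delayed rectifiers as well, 3.35%. Kcne, Kcnn, Kcnf, Kcnma, Kcnt and Kcnv, with 1 or 2 members each, held 0.501% to 2.79%. No gene of Kcng, Kcnmb, Kcnrg, Kcns or Kcnu passed the limit, so that 16 of 21 subfamilies had a member.

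**Figure D2:**
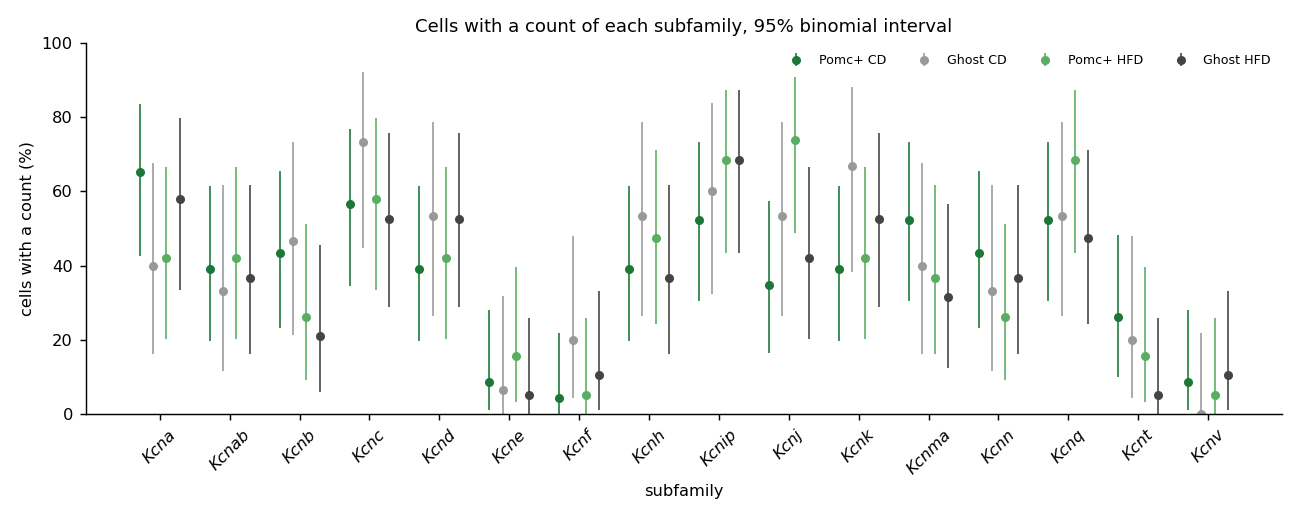
Percentage of cells of each group (y axis) with a count of any member of each of 16 subfamilies (x axis), with exact 95% binomial intervals as bars. The intervals of the 4 groups overlapped in every subfamily, and the widest spread between groups was in Kcnj, from 34.8% in Pomc+ CD to 73.7% in Pomc+ HFD.

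Summed over the 48 members, the level per cell spread more widely within each group than the medians and means did between groups. It ran from 0 to 3462 CPM in Pomc+ CD (median 709, mean 856), from 104 to 2958 in Ghost CD (median 973, mean 1074), from 20.7 to 2266 in Pomc+ HFD (median 970.2, mean 1003) and from 33 to 4186 in Ghost HFD (median 584, mean 958). The ranges of the groups overlapped, though their highest cells differed, and 1 cell, Pomc+ on CD, had no member counted. The ratio of the mean was 1.26 for Ghost over Pomc+ on CD and 0.954 on HFD, and 1.17 for HFD over CD in Pomc+ cells and 0.891 in Ghost cells. On CD the label ratio fell to 0.744 with the deposited normalized values and 0.621 with summed counts. Within the 4 runs of consecutive cell numbers that held at least 3 cells of each label on CD it was 0.169, 1.58, 1.38 and 2.15, and within the 2 such runs on HFD 1.26 and 1.57. A run was cut wherever the diet changed along the cell numbers, so that each held 1 diet by definition. Run and diet therefore cannot be told apart, and the sample titles name no batch. In Ghost cells the diet ratio rose to 1.75 with the deposited values and 1.45 with summed counts. At equal depth (40000 counts per cell) the median number of members counted was 5, 5.5, 5 and 4 in Pomc+ CD, Ghost CD, Pomc+ HFD and Ghost HFD.

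**Figure D3:**
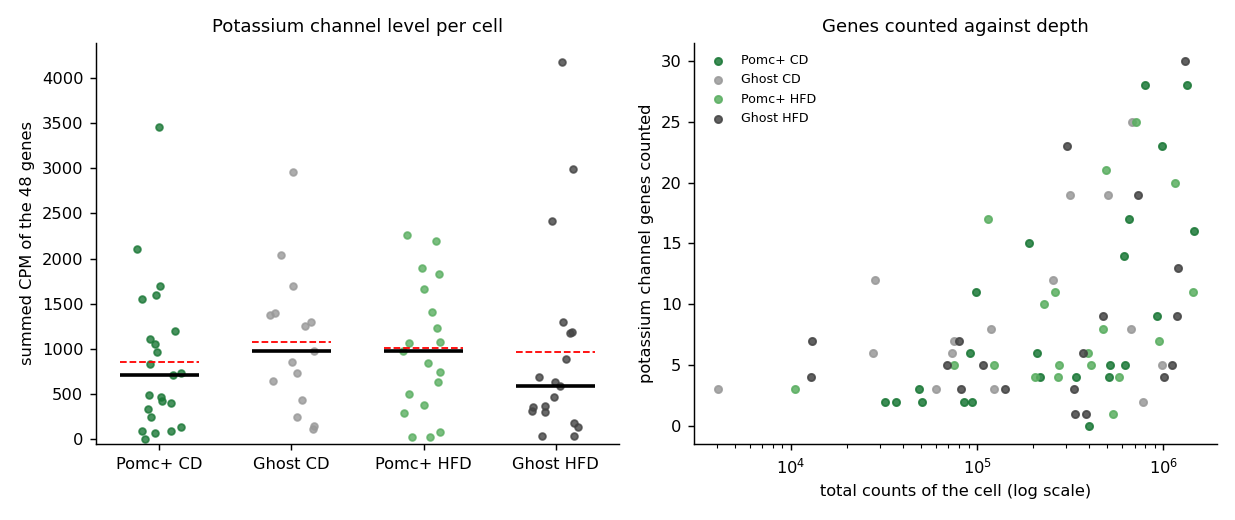
Left, summed CPM of the 48 genes in each cell (y axis) by group, with the median as a black line and the mean as a red dashed line; right, number of potassium channel genes counted (y axis) against total counts on a log scale (x axis). Cells of the 4 groups overlap on the left, and on the right cells with more counts show more genes, up to 30.

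Kcnma1, the pore of the large-conductance channel opened by calcium and depolarization, was counted in 12 of 23 Pomc+ CD, 6 of 15 Ghost CD, 7 of 19 Pomc+ HFD and 6 of 19 Ghost HFD cells. Its levels ran from 0 through a median of 1.38 to a highest of 743 CPM in Pomc+ CD, and with a median of 0 up to 739, 322 and 194 CPM in the other 3 groups in that order. The means were 59.4, 67.4, 34.3 and 20.3 CPM. The groups overlapped, and neither label ratio (1.14 on CD, 0.590 on HFD) nor the diet ratio in Pomc+ cells (0.578) reached 2-fold. Under the alternatives tried, each cell left out included, they ran from 0.313 to 2.38, 0.308 to 1.11 and 0.309 to 1.41. Each of the 3 thus passed 2-fold under at least 1 alternative. In Ghost cells the diet ratio was 0.301, and 1.04 without 1 Ghost CD cell with 3 counts of 4057. Of its auxiliary subunits none was a member: Kcnmb4, the neuronal beta subunit, was counted in 8 cells, 4 of them with Kcnma1, and of the 4 gamma subunit genes 3 (Lrrc26, Lrrc38, Lrrc52) had no count and Lrrc55 was counted in 9 cells.

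Kcnj11 had 8 counts in 4 cells: 6 counts in 2 Pomc+ CD cells (5.25 and 7.66 CPM), 1 count in 1 Pomc+ HFD cell (4.37 CPM) and 1 in 1 Ghost HFD cell (3.30 CPM). None of 15 Ghost CD cells had a count, which allows a share of up to 20%, a limit set here and below at 3 cells of the group. With at most 6 counts in a group, ratios of Kcnj11 are not given. Its partner Abcc8, the sulfonylurea receptor, was counted in 6 cells, 1 of them with Kcnj11. The alternative pore, Kcnj8, was counted in 1 cell, with 50 counts.

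Among the other calcium- and sodium-activated channels, Kcnn3, a small-conductance channel that follows action potentials, was counted in 8, 4, 4 and 6 cells of Pomc+ CD, Ghost CD, Pomc+ HFD and Ghost HFD, with means of 19.1, 10.6, 30.9 and 66.6 CPM. It was higher on HFD in Ghost cells (6.26-fold), and stayed so without any 1 cell (2.16 to 11.7). The label ratio of 2.15 on HFD turned to 0.742 without 1 Ghost HFD cell, that with 70 of 82187 counts. Kcnt, the sodium-activated channels, were lower in Ghost cells, with a mean of 1.68 CPM and 4 of 34 cells against 23.1 CPM and 9 of 42 Pomc+ cells, and their intervals of share overlapped (3.30% to 27.5% and 10.3% to 36.8%). Kcnt2 was counted in 8 cells in all and by 1 count in Ghost HFD, where the ratio of summed counts to Pomc+ was 0.0171 (95% counting interval 0.000426 to 0.0995).

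Among the M-type genes, Kcnq3, whose product is a subunit of channels that dampen firing, differed across groups. It was highest in Pomc+ HFD, where 10 of 19 cells held it, at 2.54, 3.17, 3.45, 32.3, 43.8, 46, 92.6, 200.5, 471 and 854 CPM. The cell at 854 CPM had only 10534 total counts and held 38.6% of the Kcnq3 CPM summed over all 76 cells. In Pomc+ CD 3 of 23 cells held Kcnq3 (18.4, 31.7 and 94.0 CPM), in Ghost CD 3 of 15 (25.3, 95.9 and 103 CPM) and in Ghost HFD 2 of 19 (15.1 and 77.5 CPM). The mean of 92.1 CPM in Pomc+ HFD was 14.7-fold that of Pomc+ CD (6.26 CPM; 7.94 to 40.5 with any 1 cell left out, and 2.72 with summed counts), and Ghost HFD (4.88 CPM) was at 0.0529 of it (0.00912 to 0.0980, and 0.187 with the deposited values). The shares, 52.6% (28.9% to 75.6%) against 13% (2.78% to 33.6%) for diet and 10.5% (1.30% to 33.1%) for label, had overlapping intervals. At equal depth Kcnq3 was counted in 7 of 18, 2 of 21 and 1 of 17 cells of these groups. As a subfamily, Kcnq was counted at equal depth in 7 of 29 Ghost cells (24.1%, 10.3% to 43.5%) and 19 of 39 Pomc+ cells (48.7%, 32.4% to 65.2%). With all counts the shares were closer, 17 of 34 Ghost cells (50%, 32.4% to 67.6%) and 25 of 42 Pomc+ cells (59.5%, 43.3% to 74.4%).

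**Figure D4:**
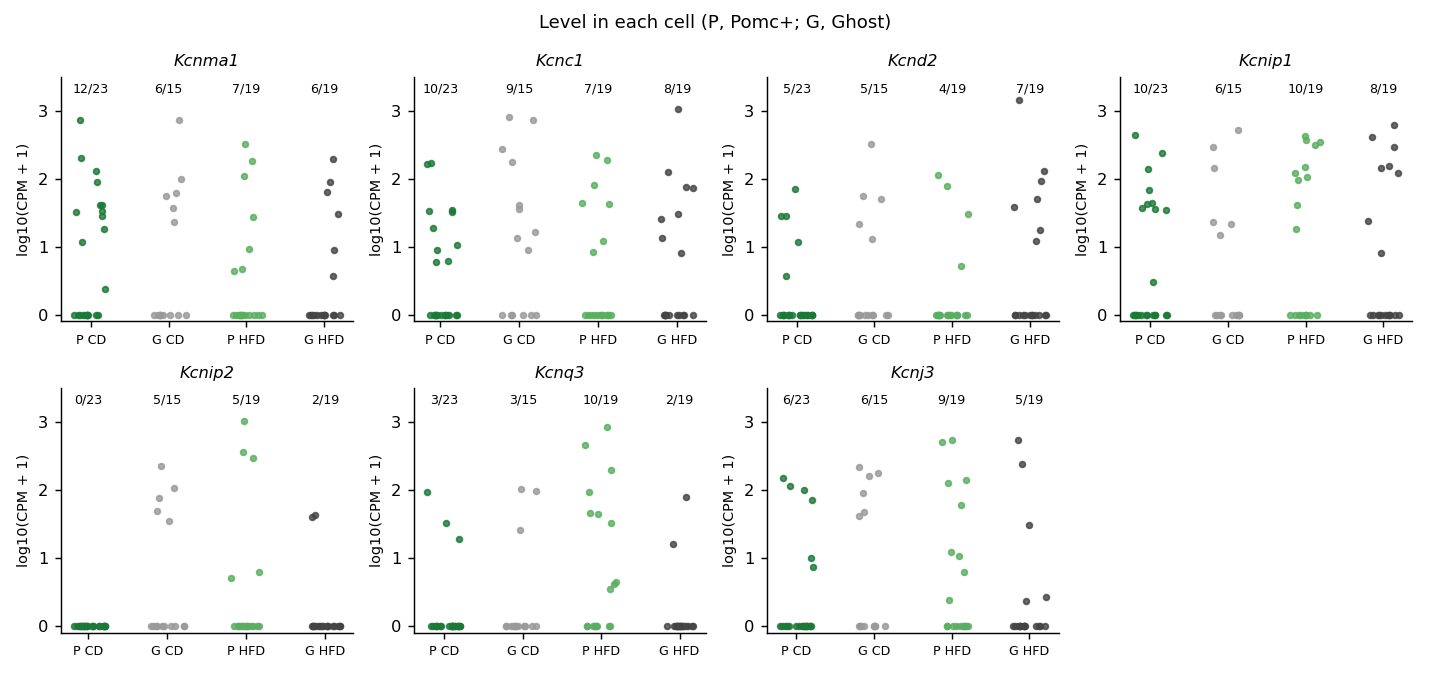
Level of 7 genes in each cell as log10 of CPM plus 1 (y axis) in the 4 groups (P, Pomc+; G, Ghost; x axis), with the number of cells with a count above each group. Kcnip2 lies at 0 in all 23 Pomc+ CD cells, and Kcnq3 is above 0 in 10 of 19 Pomc+ HFD cells.

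Among the A-type channels and their partners, label differences were found in both directions. Kcnd2, a pore that opens briefly at low voltage, was counted in 5, 5, 4 and 7 cells of Pomc+ CD, Ghost CD, Pomc+ HFD and Ghost HFD, with highest cells at 70.8, 325, 113 and 1479 CPM. Its means of 6.06, 30.8, 11.8 and 95.5 CPM gave ratios of Ghost over Pomc+ of 5.09 on CD and 8.11 on HFD. The Ghost cells stayed higher without any 1 cell, though by less than 2-fold at the lowest (1.62 and 1.58) and by 1.40-fold on HFD with summed counts, and the highest Ghost HFD cell held 19 counts of 12847. The share of cells differed less, 33.3% (11.8% to 61.6%) against 21.7% (7.46% to 43.7%) on CD. Kcnd3, of the same subfamily, had 1 count in Ghost CD and 192 in Pomc+ CD, a ratio of summed counts of 0.0114 (95% counting interval 0.000287 to 0.0643). On HFD its label ratio was 7.59, and 0.452 without 1 Ghost cell with 27 of 12900 counts. Kcnd1 was counted in 0 of 19 Ghost HFD cells, which allows a share of up to 15.8%.

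Kcnip2, one of the Kcnd partners, was counted in 0 of 23 Pomc+ CD cells, which allows a share of up to 13%. It was counted in 5 of 15 Ghost CD cells (34.8, 48.6, 77.1, 107 and 229 CPM), 5 of 19 Pomc+ HFD cells (4.09, 5.19, 301, 360.5 and 1051 CPM) and 2 of 19 Ghost HFD cells (39.6 and 42.9 CPM). By summed counts its level was at least 147-fold higher in Ghost than Pomc+ on CD. It was at least 118-fold higher on HFD than CD in Pomc+ cells, both against a floor of 3 counts over the summed Pomc+ CD group. In the other direction, Ghost HFD (mean 4.34 CPM) was at 0.0479 of Pomc+ HFD (90.6 CPM) and at 0.131 of Ghost CD (33.1 CPM). Kcnip2 was the only named member past 2-fold in all 4 comparisons under every alternative tried, without any 1 cell included. In the comparisons with Pomc+ CD its ratio is a bound in summed counts, which the deposited values and summed counts leave unchanged. Leaving out a Pomc+ CD cell changes only the floor there. The intervals of its shares in Pomc+ CD (0% to 14.8%) and Ghost CD (11.8% to 61.6%) still overlapped. Kcnip4 was counted in 8, 4, 8 and 6 cells with means of 75.6, 11.9, 28.5 and 46.2 CPM, 0.158 for Ghost over Pomc+ on CD (0.0514 to 0.252 with any 1 cell left out). Kcnip1 was counted in 10, 6, 10 and 8 cells with means of 46.8, 68.2, 105 and 93.4 CPM, and was 2.24-fold higher on HFD in Pomc+ cells (1.86 to 3.61, and 1.49 with the deposited values). Dpp6, the other kind of Kcnd partner, was counted in 45 cells, 14 of the 21 with Kcnd2 among them.

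Kcnc1, which lets neurons fire fast, was counted in 10, 9, 7 and 8 cells. The Pomc+ CD cells above 0 lay between 4.89 and 168 CPM, the Ghost CD cells between 8.10 and 829.9, the Pomc+ HFD cells between 7.40 and 226, and the Ghost HFD cells between 7.07 and 1085. On CD the mean was 142 CPM in Ghost and 20.7 CPM in Pomc+ cells, a ratio of 6.85 (4.49 to 10.1 with any 1 cell left out), and 1.35 with summed counts. The Ghost CD cells at 829.9 and 739 CPM were shallow, with 23 of 27715 and 3 of 4057 counts. Leaving out 1 cell drops only 1 of them. On HFD the means of 75.4 and 31.7 CPM gave 2.38, which turned to 0.609 without 1 Ghost cell with 14 of 12900 counts. Kcnc2, a second member of this group, was lower on HFD in both labels, with means of 57.7 and 25.4 CPM in Pomc+ and 51.4 and 18.8 CPM in Ghost cells (ratios 0.440 and 0.365). With any 1 cell left out these ratios of Kcnc2 lay between 0.220 and 0.785 and between 0.138 and 0.670, and with summed counts the Ghost ratio was 0.936. Kcnc4 was counted in 4, 4, 2 and 4 cells, and its label ratio on HFD (4.08) turned to 0.613 without 1 cell.

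Of the delayed rectifiers, Kcnb2 had 3 counts in Ghost CD against 109 in Pomc+ CD, a ratio of summed counts of 0.0603 (95% counting interval 0.0122 to 0.181). Kcnf1 and Kcnv1, silent subunits that pair with Kcnb, were counted in 7 and 5 cells. Of the Kcna genes, Kcna5 was the one counted in the largest number of cells (6, 4, 4 and 4), with means of 19.9, 24, 17.3 and 11.2 CPM. Kcna3 was counted in 5 of 23 Pomc+ CD cells, 0 of 15 Ghost CD, 3 of 19 Pomc+ HFD and 3 of 19 Ghost HFD cells, with means of 2.38, 0, 8.01 and 2.92 CPM. Its ratio of Ghost over Pomc+ was at most 0.115 on CD, against a floor of 3 counts over the group, and 0.364 on HFD, but 0.809 there without 1 Pomc+ cell at 87.3 CPM. Kcna6 was lower on HFD in both labels, with means of 23.7 and 1.58 CPM in Pomc+ and 11.9 and 0.395 CPM in Ghost cells. The Pomc+ ratio (0.0668) stayed between 0.0442 and 0.238, whereas the Ghost ratio (0.0333) turned to 3.76 without 1 Ghost CD cell with 5 of 28362 counts. Kcnab2, the Kcnab member counted in the larger number of cells, had means of 11.5, 6.21, 19.2 and 27.5 CPM and was 4.42-fold higher on HFD in Ghost cells (2.71 to 13). Kcnab1 was lower on HFD in both labels (0.364, 0.122 to 0.649, in Pomc+ and 0.166 in Ghost cells), and the Ghost ratio turned to 1.46 without 1 cell. Kcnh2, a channel with slow closing that steadies firing, was counted in 7, 2, 6 and 4 cells with means of 29, 40.8, 42.1 and 21.6 CPM, under 2-fold in every comparison. Its Ghost CD mean rested on 1 cell at 601 CPM, without which Kcnh2 was at 0.0288 for Ghost over Pomc+ on CD and at 25.9 for HFD over CD in Ghost cells. The 1 Kcne member, Kcne1l, was counted in 2, 1, 3 and 1 cells.

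The G protein-gated inward rectifiers, which hyperpolarize neurons when opioid, GABA or other inhibitory receptors are active, had their highest means in Pomc+ HFD or Ghost CD cells. Kcnj3 was counted in 6, 6, 9 and 5 cells, with a median of 0 in each group and highest cells at 153, 219, 542 and 545 CPM. Its means of 19.8, 48.9, 73.8 and 43.4 CPM gave 3.72 for HFD over CD in Pomc+ cells, past 2-fold without any 1 cell (2.41 to 5.37) and under every other alternative. On CD it was 2.47-fold higher in Ghost cells by mean CPM, but 0.831 with the deposited normalized values and 0.753 with summed counts. Kcnj6 and Kcnj9, with which Kcnj3 forms channels, had means of 2.32, 36.7, 21 and 2.89 CPM and of 14.4, 41.7, 34.1 and 4.42 CPM, counted in 11 and 13 cells. On HFD both were lower in Ghost cells (0.137, 0.0662 to 0.258, and 0.130, 0.00962 to 0.392), although Kcnj9 was at 0.608 with summed counts. On CD the Ghost ratios of 15.8 and 2.88 turned to 0.0974 and 0.652 without 1 Ghost cell each. Kcnj3 was counted together with Kcnj6 in 9 cells and with Kcnj9 in 8. Kcnj10, the inward rectifier for which astrocytes are known, was counted in 2, 2, 3 and 3 cells, all 10 of which also held a count of an astrocyte marker, as did 49 of the 66 cells without it. The part of astrocyte RNA in the Kcnj values was not tested.

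The background channels of the Kcnk subfamily, which hold the resting potential, were counted in 20 of 34 Ghost cells (58.8%, 40.7% to 75.4%) and 17 of 42 Pomc+ cells (40.5%, 25.6% to 56.7%). At equal depth the shares were 15 of 29 (51.7%, 32.5% to 70.6%) and 14 of 39 (35.9%, 21.2% to 52.8%). Kcnk9, an acid-sensitive member, was counted in 2 of 23 Pomc+ CD cells (3.76 and 15.8 CPM), 4 of 15 Ghost CD cells (11.7, 54.8, 108 and 534 CPM), 2 of 19 Pomc+ HFD cells (7.79 and 191 CPM) and 6 of 19 Ghost HFD cells (1.37 to 139 CPM). On CD its mean was 47.3 CPM in Ghost and 0.849 CPM in Pomc+ cells, a ratio of 55.7 (14.7 to 277 with any 1 cell left out, and 7.47 with the deposited values), whereas on HFD the ratio was 1.18 (0.504 to 28.4). Kcnk2, opened by stretch and lipids, had means of 17.4, 1.74, 4.62 and 16.3 CPM in Pomc+ CD, Ghost CD, Pomc+ HFD and Ghost HFD. It was at 0.0999 in Ghost over Pomc+ on CD (0.0431 to 0.148) and at 3.53 on HFD (1.96 to 339), and at 0.265 for HFD over CD in Pomc+ cells (0.00276 to 0.393, the lower value without 1 Pomc+ HFD cell at 86.8 CPM). Kcnk12 was 20.7-fold higher in Ghost cells on CD, and 0.601 without the cell with 6 counts of 4057. On HFD it was counted in 0 of 19 Pomc+ cells, which again allows up to 15.8%.

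Across the 48 members, differences of 2-fold or more in mean CPM were common in both directions of every comparison, as they were among all genes that passed the same limit. For Ghost over Pomc+ on CD, 14 members were higher, against 23.1% of the 12265 genes, and 13 were lower, against 31.6%. On HFD, 15 were higher, against 21.4%, and 19 lower, against 33.9%. For HFD over CD, 17 members were higher and 14 lower in Pomc+ cells, against 28.5% and 22.5% of genes, and 16 were higher and 19 lower in Ghost cells, against 29.6% and 27.4%. As percentages of the 48 members these counts were 29.2% and 27.1%, 31.2% and 39.6%, 35.4% and 29.2%, and 33.3% and 39.6% in that order. The median log2 ratio of the members with a count in both groups was 0.01, -0.37, -0.04 and -0.74 for Ghost over Pomc+ on CD and on HFD and for HFD over CD in Pomc+ and in Ghost cells, and that of all genes -0.06, -0.23, 0.12 and -0.07. With members at 0 in 1 group set at their bounds, the medians were -0.24, -0.53, 0.25 and -0.52. The lower median in Ghost cells on HFD changed sign with other scalings: it was 0.36 with the deposited values and 0.34 with summed counts, which moved the median of all genes to 0.25 and 0.23. The split of 14 higher and 13 lower on CD became 12 and 21 with the deposited values, 8 and 20 with summed counts, 14 and 21 without the genes counted in every cell and 12 and 20 in cells with at least 40000 counts. In Pomc+ cells 17 and 14 became 14 and 19 with summed counts, and in Ghost cells 16 and 19 became 17 and 13 with the deposited values.

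**Figure D5:**
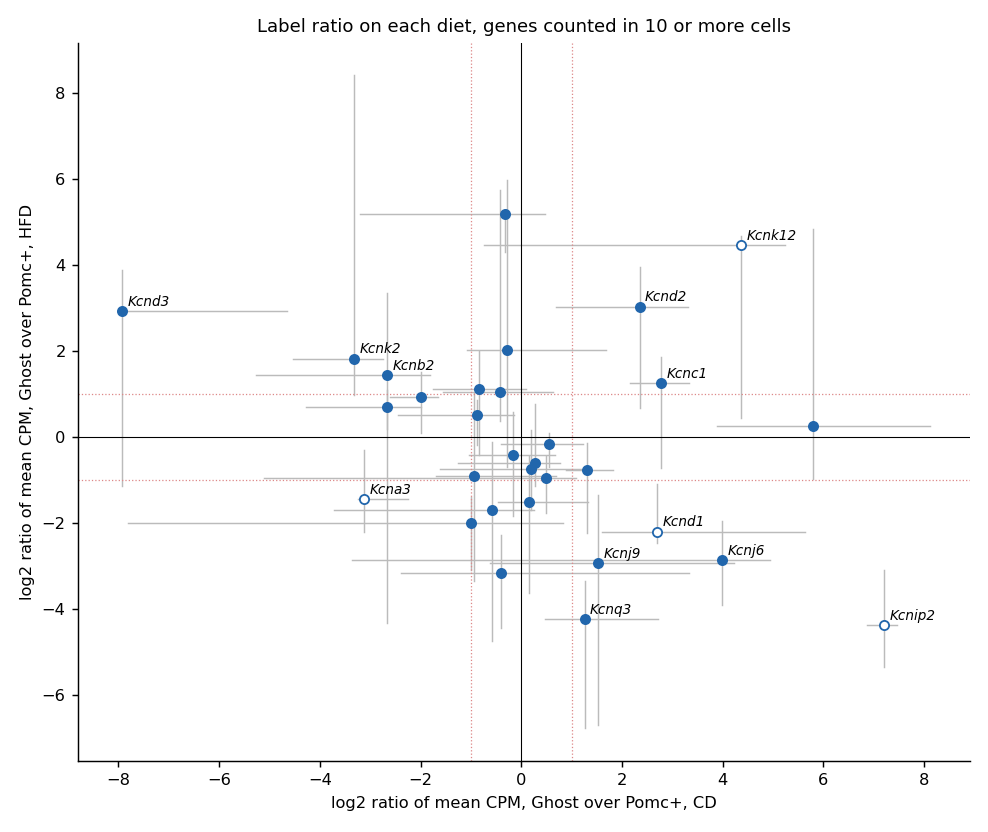
Log2 ratio of mean CPM for Ghost over Pomc+ on CD (x axis) and on HFD (y axis) for the 31 members counted in 10 or more cells, with grey lines for the range when any 1 cell is left out and open circles where 1 group was at 0 and the ratio is a bound. Dotted lines mark 2-fold; Kcnd2, Kcnc1 and Kcnk12 lie past them at the upper right, Kcna3 at the lower left, and 8 genes lie past them in opposite directions.

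The label comparisons on the 2 diets share no cells, and 9 members were past 2-fold in the same direction in both. Those higher in Ghost cells were Kcnc1, Kcnd2, Kcnh8 and Kcnk12 (4 members, against 6.0% of genes), and those lower included Kcna3, Kcnip3, Kcnk4 and Kcnt1 (5 members, against 12.3%). In opposite directions lay 11 members, against 15.5% of genes. Of the 9, only Kcnc1, Kcnd2, Kcnk12 and Kcna3 were counted in 10 or more cells, and Kcnh8, Kcnip3, Kcnk4 and Kcnt1 are named because the counts are small, after their values were seen. Kcnh8 had 3 counts in Pomc+ CD, all in 1 cell, and 70 in Ghost CD, all in 1 cell at 221 CPM. Its ratio of summed counts there was 51.1 (95% counting interval 16.8 to 254), and without that Ghost cell Ghost CD held no count. Of the 4 wider genes, Kcnd2 and Kcna3 stayed on their side of 1 on both diets under every alternative tried. For Kcna3 on CD the ratio is a bound in summed counts, which the deposited values and summed counts leave unchanged. The diet comparisons in the 2 labels share no cells either. On each diet, though, the cells of both labels came from the same 5 mice, so that these comparisons are not independent. Kcna3, Kcnip3 and Kcnj14 were among those higher on HFD in both (4 members, against 10.3% of genes), Kcna6, Kcnab1, Kcnc2, Kcnk12 and Kcnt1 were lower in both (5 members, against 7.26%), and 13 went opposite ways, against 15.1%. Of the lower ones, Kcnc2 stayed below 1 in both labels under every alternative, whereas Kcna6, Kcnab1 and Kcnk12 each turned in Ghost cells without 1 cell. A label and a diet comparison share a group, so that, for example, the same Pomc+ HFD cells stand behind the Kcnq3 ratios of 14.7 for diet and 0.0529 for label.

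Of 24 genes listed as partners of potassium channels (anchors, regulators, sulfonylurea receptors and calmodulin), 21 had a count. For Ghost over Pomc+, 5 of the 21 were 2-fold or more higher and 1 lower on CD, and 5 higher and 4 lower on HFD. For HFD over CD, 4 were higher and 4 lower in Pomc+ cells, and 5 higher and 6 lower in Ghost cells. Of the 12265 genes past the limit, 23.1% were higher and 31.6% lower for label on CD, and 21.4% and 33.9% on HFD. For diet they were 28.5% and 22.5% in Pomc+ cells, and 29.6% and 27.4% in Ghost cells. Some of the 21 did not pass that limit. Dpp6 had means of 139, 96.0, 63.3 and 67.5 CPM in Pomc+ CD, Ghost CD, Pomc+ HFD and Ghost HFD, 0.456 for HFD over CD in Pomc+ cells (0.236 to 0.536 with any 1 cell left out). Ank3, which anchors Kcnq channels where the axon starts, was counted in 39 cells and reached 2-fold in no comparison (means 52.8, 91.0, 104 and 123 CPM). The mean of Abcc8 in Ghost CD, 134 CPM, came almost wholly from 1 cell at 1972 CPM, and its label ratio of 84.0 on CD was 1.84 without it.

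Markers of other cells were counted in the same libraries and moved with diet and label. On CD the mean summed level of 6 microglia markers was 109.6 CPM in Pomc+ and 79.6 CPM in Ghost cells. On HFD it was 908 and 868 CPM. The medians were 0 and 0 on CD and 26.6 and 219 CPM on HFD. The lowest cell of each group was at 0, and the highest HFD cells were at 8268 CPM in Pomc+ and 5994 CPM in Ghost. All 6 were 2-fold or more higher on HFD in both labels, against 28.5% of all genes in Pomc+ and 29.6% in Ghost cells. At least 1 was counted in 39 cells. P2ry12, which defines microglia, was at 0 in both CD groups. The mean summed level of 6 astrocyte markers was 217, 196, 362 and 69.6 CPM in Pomc+ CD, Ghost CD, Pomc+ HFD and Ghost HFD. The medians were 37.5, 25.9, 344 and 20.2 CPM. Of the 6, 5 were 2-fold or more lower in Ghost cells on HFD, against 33.9% of all genes, and at least 1 was counted in 59 cells. Oligodendrocyte markers (means 253, 297, 726 and 381 CPM, medians 129, 263, 261 and 310.1 CPM) were counted in 68 cells, with Mog at 0 in 3 groups. Their highest Pomc+ HFD cell was at 5758 CPM. Endothelial and mural markers were counted in 10 cells, none of them Ghost CD. Of the tanycyte and ependyma list, counted in 47 cells, mainly through Vim, the defining gene Rax was at 0. The part of these cells in the potassium channel values was not tested.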

How the data were processed

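Raw counts per gene and cell were deposited for 76 Patch-seq libraries (SMART-Seq, paired-end, unstranded, no molecular identifiers). The submitters' processing notes name cutadapt 2.10, STAR 2.7.5a, DESeq2 and the build GRCm38 (mm10). The counting tool and the annotation are not given in the sources used here. The authors also deposited a normalized signal for each gene, which equalled the count over a size factor per cell (0.0157 to 9.05) and served as an alternative. Here counts were divided by the cell's total and given per 1000000 counts (CPM), and averaged over the cells of a group. Shares of cells carry exact Clopper-Pearson 95% intervals, and a share of 0 a limit of 3 cells of the group. Cells were thinned to 40000 counts for equal depth, which left out 8 cells. A group without a count was set at a floor of 3 counts over its summed total, and such a ratio is a bound in summed counts. A gene was called at a 2-fold ratio of mean CPM. No count model was fitted, because the labels name no mouse. Of the 56980 gene identifiers, 52073 had a symbol, and those without held 36.6% of counts. Alternatives were other scalings, summed counts, dropping the 5 cells under 1000 genes or above 20% of counts from mitochondria, other thresholds, and each cell left out in turn. No 2 cells held identical counts.

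The members and the marker and partner lists were chosen with earlier results of these data known. Named were Kcnj11 and Kcnma1, the member of each subfamily counted in the most cells, the 3 highest and 3 lowest ratios of each comparison among members counted in 10 or more cells and in 2 or more cells of each group, and members counted in 10 or more cells that passed 2-fold the same way on both diets or in both labels. Values of single genes that the rule names but the text does not give are not reported here; totals include them. The scripts were tested on simulated data. Python 3.11.15, pandas 2.3.3 and scipy 1.17.1 were used.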

Additional observations from a re-analysis of the deposited data

Results flagged for a closer look

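For 8 genes counted in 10 or more cells, the mean CPM of Ghost cells lay 2-fold or more from that of Pomc+ cells in opposite directions on the 2 diets. Since the labels name no mouse, no test of this contrast between diets was made. Higher in Ghost cells on CD and lower on HFD were Kcnip2 (at least 147-fold on CD and 0.0479 on HFD), Kcnj6 (15.8 and 0.137), Kcnd1 (6.50 and at most 0.217), Kcnj9 (2.88 and 0.130) and Kcnq3 (2.39 and 0.0529). Lower in Ghost cells on CD and higher on HFD were Kcnk2 (0.0999 and 3.53), Kcnb2 (0.158 and 2.69) and Kcnd3 (0.00411 and 7.59). The CD value of Kcnd3 rests on 1 count in Ghost cells (ratio of summed counts 0.0114, 95% counting interval 0.000287 to 0.0643) and that of Kcnb2 on 3 counts (0.0603, 0.0122 to 0.181). With 1 cell left out, the direction on 1 of the diets turned for Kcnj6, Kcnj9, Kcnb2 and Kcnd3. It turned on neither diet for Kcnip2, Kcnd1, Kcnq3 and Kcnk2. With summed counts Kcnq3 was at 1.06 on CD and Kcnj9 at 0.608 on HFD. Among all genes, 15.5% lay past 2-fold in opposite directions, and 11 of the 48 members did.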

How the results depend on the processing

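No paired analysis was possible because the labels give no replicate number that groups share. Depth limits most values: a member was counted in a median of 12 cells, and shallow cells weigh as much in a mean as deep ones. The cells with 40000 counts or more, and the median over the members, were alternatives chosen after seeing the data. Of the summary values under alternatives, 17 moved and 99 did not, and of 640 ratios of named genes under alternatives other than leaving out a cell, 219 moved past 1.5-fold and 20 turned. Leaving out 1 cell turned 21 results. The cause was not tested.

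The summed ratio of Ghost over Pomc+ on CD (1.26) was 0.744 with the deposited values, 0.621 with summed counts, 0.169 in the first and 2.15 in the seventh run of cell numbers, and 1.1 to 1.46 with any 1 cell left out. On HFD (0.954) it was 1.57 in the eighth run, and 0.776 to 1.03 with 1 cell left out. HFD over CD was 1.09 to 1.36 in Pomc+ and 0.724 to 1.02 in Ghost cells with 1 cell left out, and in Ghost cells 1.75 with the deposited values and 1.45 with summed counts. The median log2 ratio of the members, with 1 cell left out, was -0.23 to 0.21 for label on CD, -0.96 to -0.20 on HFD, -0.23 to 0.58 for diet in Pomc+ and -1.04 to -0.32 in Ghost cells. It was -0.69 with summed counts for label on CD, and 0.36 (deposited) and 0.34 (summed) for diet in Ghost cells. These scalings moved the median of all genes by -0.68 and -0.49 for label on CD and by 0.31 and 0.30 for diet in Ghost cells. Members past 2-fold numbered 25 to 32, 32 to 38, 29 to 34 and 33 to 37 with 1 cell left out, and 16, 20 and 18 among the 31 counted in 10 or more cells, for label on CD, label on HFD and diet in Pomc+ cells. The limits of 1 count in 1 cell and of 5 counts in 10 cells gave 78 and 21 genes.

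With summed counts, the label ratio turned on CD for Kcnj3 (0.753, and 0.831 with the deposited values) and Kcnk12 (0.619), and on HFD for Kcnc1 (0.981) and Kcnf1 (2.92). The diet ratio turned in Pomc+ cells for Kcnc4 (1.48) and Kcnf1 (0.471), and in Ghost cells for Kcnk12 (1.37, and 1.27 deposited) and Kcnma1 (1.17). In cells with 1000 genes and at most 20% mitochondrial counts, Kcnk12 turned for label on CD (0.574), and for diet in Ghost cells Kcnk12 (7.59), Kcnd2 (0.563) and Kcnma1 (1.1) did. In cells with 40000 counts or more, Kcnk12 on CD (0.640) and Kcnc1 (0.610) and Kcnd3 (0.453) on HFD turned for label, and Kcna6 (3.6), Kcnk12 (1.56) and Kcnma1 (1.15) for diet in Ghost cells.

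With any 1 cell left out, ranges that crossed 1 for label were, on CD, Kcnj6 0.0974 to 30.5, Kcnj9 0.652 to 18.7 and Kcnk12 0.601 to 37.9, and on HFD Kcnb2 0.0494 to 10.2, Kcnc1 0.609 to 3.62, Kcnc4 0.613 to 62.9, Kcnd3 0.452 to 14.8, Kcnf1 0.00279 to 37.5 and Kcnn3 0.742 to 3.96. For diet in Pomc+ cells they were Kcnc4 0.0225 to 1.35, Kcnf1 0.0367 to 13.9, Kcnj9 0.780 to 15.3 and Kcnk9 0.510 to 61.1. In Ghost cells they were Kcna5 0.324 to 1.34, Kcna6 0.0155 to 3.76, Kcnab1 0.0203 to 1.46, Kcnb2 0.194 to 65.1, Kcnd2 0.603 to 9.72, Kcnj6 0.0380 to 12.8, Kcnk12 0.0497 to 7.19 and Kcnma1 0.157 to 1.04. The range of Kcnj3 for label on CD, 1.85 to 3.55, did not cross 1.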
